A study of Mus musculus with 12 samples.

Results

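Regulatory T cells (Treg) with a conditional knockout of Kdm2b were stimulated in culture, and their response was read as the difference between 2 stimulated and 2 unstimulated cKO libraries of polyadenylated RNA. These 4 libraries are part of a mouse series of 12, and the 10710 genes of the in vitro table with a mean of at least 1 FPKM over the 8 libraries used were tested. The values are FPKM, fragments scaled to the length of the gene and to library size, taken as deposited. The 4 groups used, with 2 libraries each, are cKO stimulated, cKO unstimulated, WT (wild-type mice) stimulated and WT unstimulated Treg. All were cultured, and all came from spleen and lymph nodes. The stimulus, its length, the age and strain of the mice, the Cre driver of the knockout and the sorting of the cells are not stated in the labels or files used. Whether the replicates are different animals or different cultures is not labelled, so p-values measure only the spread between these libraries, which may be technical.

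Treg restrain other immune cells and depend on the transcription factor Foxp3. When their T cell receptor and interleukin 2 receptor are engaged, they leave the resting state, grow, and make the products of effector Treg, with STAT5 as the main factor downstream of interleukin 2. KDM2B is a histone demethylase that brings the non-canonical Polycomb complex PRC1.1 to unmethylated CpG islands, where PRC1 places ubiquitin on histone H2A.

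Kdm2b itself (chromosome 5, 122870665 to 122989823, GRCm38) stood at 66.3 and 70.5 FPKM in the stimulated cKO libraries and at 89.8 and 97.4 FPKM in the unstimulated ones. The groups did not overlap, but limma did not call the difference (-0.45 on the log2 scale, SE 0.13, adjusted p = 0.0977). WT libraries had 74.5 and 71.7 FPKM stimulated and 84.9 and 94.9 FPKM unstimulated, so that the cKO libraries hold Kdm2b RNA at levels near those of WT, overlapping in unstimulated cells and slightly lower in stimulated ones, a difference that was not tested. A value over the whole gene cannot show whether an exon was deleted, and the knockout was not checked by it. FPKM summed to between 371550 and 438763 per cKO library, the values do not step in whole fragments, and the depth behind them is unknown.

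The cKO libraries were first set against markers of T cells and of other cells. The measured T cell markers summed to 1434 and 1400 FPKM in stimulated and 1432 and 1524 FPKM in unstimulated cKO cells, and of 9 tested 1 was called higher and 1 lower by the rule described below, with a median log2 fold change of -0.345. Cd4 had 92.6 and 85.5 FPKM in stimulated and 129 and 107 in unstimulated cells, and Ctla4 had 359 and 332 against 296 and 327 FPKM. Haemoglobin genes made up 10.3% and 1.86% of the FPKM of the stimulated cKO libraries (replicates 1 and 2) and 11.6% and 1.33% of the unstimulated ones. So both replicate 1 libraries stand apart, by a like amount in each group. The 15 measured B cell markers summed to 207.2 and 202.3 FPKM in stimulated and 246.9 and 257.2 FPKM in unstimulated cKO cells, and the 23 measured myeloid markers to 437.7 and 236.3 against 591.1 and 302.1 FPKM. The 10 tested MHC class II genes summed to 1359 and 1127 FPKM in stimulated and 1468 and 1261 FPKM in unstimulated cKO cells. None of these 10, nor of the 14 tested B cell, 16 myeloid, 14 erythroid, 6 plasma cell, 7 CD8 T and NK cell or 3 platelet markers, was called in cKO cells by the rule described next. That rule called 4.58% of all genes, a share at which lists this short hold few calls. The lack of calls therefore does not show that such cells are unchanged. The part that cells of other types have in the results below was not tested, and in such bulk libraries fewer cells of a type cannot be told apart from less RNA per cell.

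Stimulation raised 223 genes and lowered 267 in cKO Treg, 490 in all or 4.58% of those tested (2.08% higher, 2.49% lower). Calls are genes whose p, adjusted by Benjamini-Hochberg over all 10710, was under 0.05 in limma's fit of log2(FPKM + 1), in which the 8 in vitro libraries share an estimate of the spread. Fold changes on this scale understate the change of low genes. The largest rise was that of Il22, at 7.22 on the log2 scale, and the largest fall was that of Fam101b, at -2.69. Of the called genes 157 rose and 153 fell by 1 or more on the log2 scale.

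**Figure D1:**
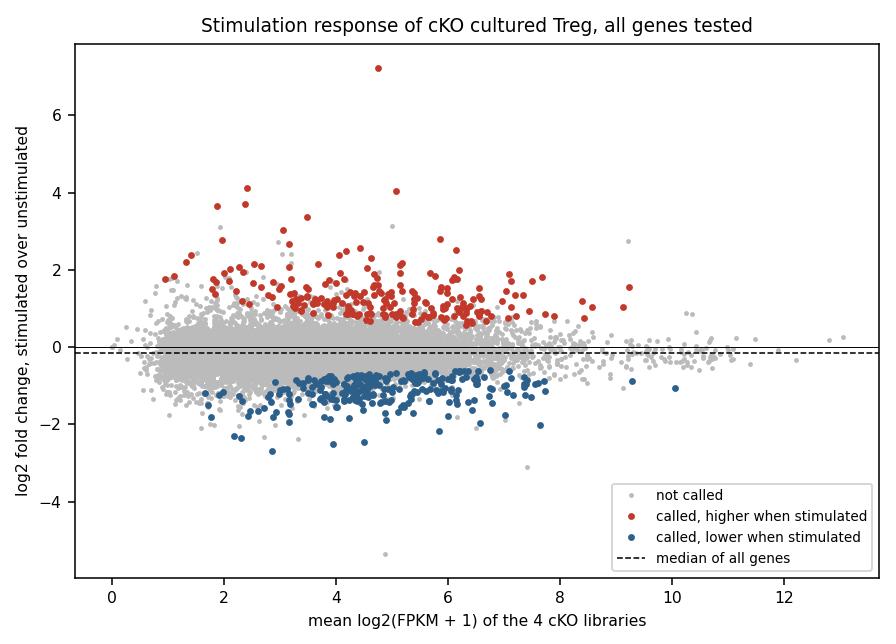
Log2 fold change of stimulated over unstimulated cKO Treg (vertical axis) against the mean log2(FPKM + 1) of the 4 cKO libraries (horizontal axis), 1 point per tested gene. Red points are the 223 genes called higher and blue points the 267 called lower; the dashed line is the median of all 10710 genes, at -0.14.

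The median gene lay at -0.139 rather than 0, and the falls depend on this more than the rises. Median-of-ratios scaling moved that median up by 0.121, quantile normalization by 0.13, a common sum by 0.111 and a common sum without haemoglobin genes by 0.105. Higher calls were 45.5% of the 490 as deposited, and 68.1%, 61.7%, 66.1% and 60.2% of the calls under those rescalings. Of the 223 risen genes 211 (94.6%) were called higher under all 4 rescalings, but of the 267 fallen genes 131 (49.1%) were called lower under all 4. A fall is marked below where it was not.

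The calls also rest on single libraries. Without stimulated replicate 1 or stimulated replicate 2 limma called 20 genes each, without unstimulated replicate 1 it called 79 and without unstimulated replicate 2 it called 12, the lone library being assumed to vary like the other groups. The sign of none of the 490 turned in those fits, in the 4 fits without a WT library or under the 4 rescalings. Called in every fit that left out 1 of the 8 libraries were 11 genes, Il22, Itih5, Gpr83, Lama5, Socs1, Lta, Kpna1, Bcl2, Ezh2 and Nabp1 as higher and Bcl6 as lower. Without both replicate 1 libraries of cKO cells, those rich in haemoglobin, 1 stimulated library stood against 1 unstimulated, and WT alone gave the spread. The median log2 fold change of all genes was then -0.131. The matching fit without both replicate 2 libraries was not made, and the part of haemoglobin in the calls was not tested.

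**Figure D2:**
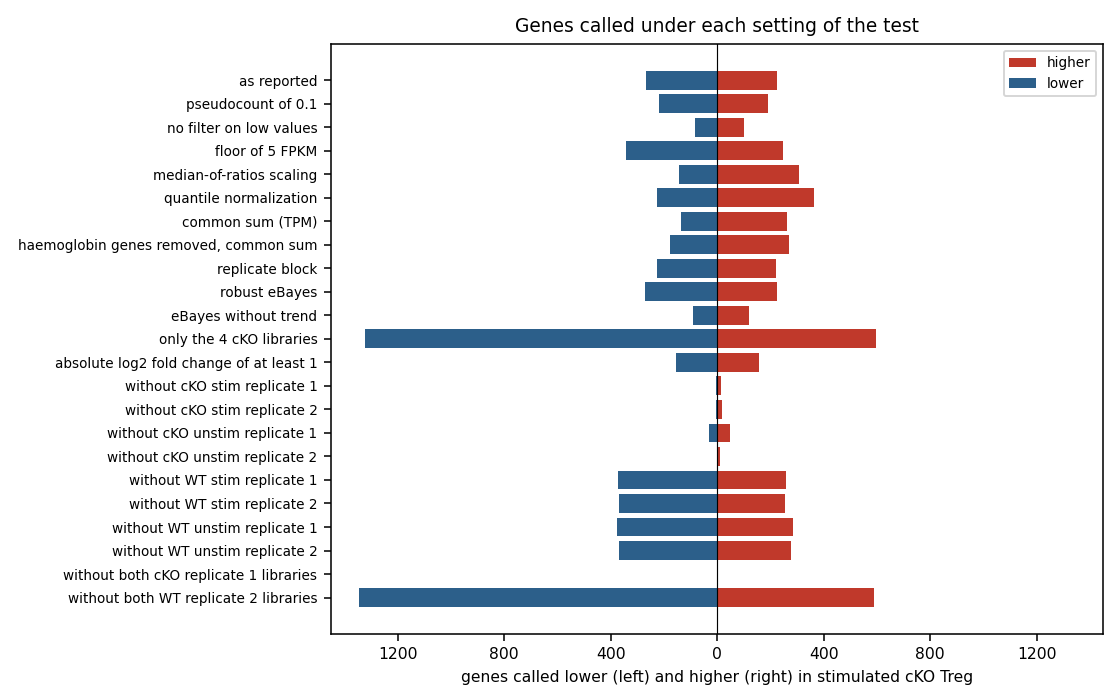
Number of genes called lower (bars to the left) and higher (bars to the right) in stimulated cKO Treg under each setting of the test. The counts of 267 and 223 shrink to 1 and 11 without cKO unstimulated replicate 2, and stand at 1322 and 596 when the 4 cKO libraries are fitted alone.

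Cytokine genes gave the largest change. Il22, a cytokine that acts on epithelia (chromosome 10, 118204942 to 118210047, GRCm38), had 504 and 215 FPKM in stimulated cKO Treg against 1.81 and 0.735 FPKM in unstimulated ones. The stimulated libraries differ from each other by more than the unstimulated level, yet both lie far above it (log2 fold change 7.22, SE 0.42, adjusted p = 0.000887). Reads of Il22 can be shared with its near copy Iltifb, which was at 2.90 and 1.32 FPKM in stimulated cells and listed at 0 in both unstimulated libraries.

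Lta, which encodes lymphotoxin alpha, had 55.8 and 47.9 FPKM in stimulated and 7.35 and 8.33 FPKM in unstimulated cells (log2 fold change 2.58, SE 0.20, adjusted p = 0.00206). Csf2, the gene of GM-CSF, had 12.7 and 11.5 against 2.24 and 1.86 FPKM (2.11, adjusted p = 0.00461). Osm, an interleukin 6 family cytokine, rose by 1.11. These 4 were the called members of 28 tested cytokine genes, where 4.58% of all genes were called. The median of the 28 was 0.437. Il2 stood at 2.82 and 3.03 FPKM in stimulated cells and at 0.278 and 0 in unstimulated ones without passing (1.80, adjusted p = 0.124). Ifng, with 9.32 and 5.16 against 2.48 and 3.53 FPKM, did not pass either (1.01, adjusted p = 0.137). Il10, the anti-inflammatory cytokine of effector Treg, had overlapping groups, with 13.1 and 7.59 FPKM in stimulated and 8.93 and 8.13 FPKM in unstimulated cells.

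Of 22 tested genes of the interleukin 2 receptor and of STAT5 signalling 12 were called higher and 1 lower, against 2.08% and 2.49% of all genes. Their median was 1.23 against -0.139 for all genes. This list and the others here were chosen with earlier results of these data known, so such shares describe them and are no test. Lta and Osm, counted above among cytokine genes, are among the 12. Socs1, a feedback inhibitor of cytokine signalling, had 159 and 146 FPKM in stimulated and 18.6 and 24.0 FPKM in unstimulated cells (log2 fold change 2.79, SE 0.16, adjusted p = 0.000887). Bcl2, which protects from cell death, had 52.5 and 55.6 against 9.89 and 10.2 FPKM (2.32, SE 0.15, adjusted p = 0.00153). In both genes the stimulated libraries lie close together and far above the unstimulated ones.

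Il2ra, the high-affinity chain of the interleukin 2 receptor, had 408 and 364 FPKM in stimulated and 113 and 103 FPKM in unstimulated cKO Treg (1.83, adjusted p = 0.00422). Socs2 rose by 1.83, the cyclin gene Ccnd2 by 1.76, the protease gene Gzmb by 1.76, Tnfrsf8 by 1.71 and Cish by 1.35. The receptor chains Il4ra and Il2rb rose by 0.93 and 0.76. Stat5a, one of the STAT5 genes, went the other way, with 108 and 145 FPKM in stimulated and 194 and 235 FPKM in unstimulated cells (-0.77, adjusted p = 0.0495), a call that none of the 4 rescalings kept. Of the 12 higher calls, 3 were made without stimulated replicate 1, 3 without stimulated replicate 2, 6 without unstimulated replicate 1 and 3 without unstimulated replicate 2. Among 8 tested SOCS family genes Socs1, Socs2 and Cish were the 3 called, where 4.58% of all genes were.

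The 250 bases before the RefSeq gene start (GRCm38.p6) were read, and are shown for 4 called genes that hold a STAT or AP-1 motif there. STAT and AP-1 factors act downstream of interleukin 2 and of the T cell receptor. Lta and Bcl6 are among the 11 genes called in every fit that left out a library, and Gzmb and Tnfrsf8 belong to the interleukin 2 list. Of those 11 genes 10 had a promoter entry, and only Lta and Bcl6 held a STAT or AP-1 match or another motif given below. The sequences are written 5′ to 3′ on the strand of the gene, and capitals mark matches to TTCNNNGAA (STAT) or TGANTCA (AP-1), searched on both strands. The windows are chr17:35205352-35205601, minus strand, for Lta; chr16:23988853-23989102, minus strand, for Bcl6; chr14:56262335-56262584, minus strand, for Gzmb; and chr4:145315165-145315414, minus strand, for Tnfrsf8.
Lta: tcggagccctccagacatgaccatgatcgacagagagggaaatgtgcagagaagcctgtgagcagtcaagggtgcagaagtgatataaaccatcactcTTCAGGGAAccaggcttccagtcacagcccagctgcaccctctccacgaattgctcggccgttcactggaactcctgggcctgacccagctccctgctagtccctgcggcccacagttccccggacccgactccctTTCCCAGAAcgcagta
Bcl6: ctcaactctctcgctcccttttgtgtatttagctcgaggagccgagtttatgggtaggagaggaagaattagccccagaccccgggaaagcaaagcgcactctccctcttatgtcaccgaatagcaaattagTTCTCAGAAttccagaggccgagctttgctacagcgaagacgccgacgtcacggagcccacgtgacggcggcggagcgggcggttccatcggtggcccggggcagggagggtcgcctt
Gzmb: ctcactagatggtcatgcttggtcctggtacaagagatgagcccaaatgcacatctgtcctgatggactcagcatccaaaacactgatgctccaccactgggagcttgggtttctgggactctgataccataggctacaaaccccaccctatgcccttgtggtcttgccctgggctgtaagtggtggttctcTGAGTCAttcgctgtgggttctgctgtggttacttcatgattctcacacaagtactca
Tnfrsf8: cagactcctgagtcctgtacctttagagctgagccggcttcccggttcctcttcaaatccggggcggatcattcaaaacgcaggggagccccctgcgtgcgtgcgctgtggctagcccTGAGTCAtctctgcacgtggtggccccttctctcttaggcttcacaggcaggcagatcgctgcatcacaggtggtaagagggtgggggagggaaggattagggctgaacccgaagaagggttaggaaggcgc
Lta holds 2 STAT matches, starting 152 and 16 bases before the gene start, and Bcl6 holds 1, starting 118 bases before it. Gzmb and Tnfrsf8 hold 1 AP-1 match each, starting 58 and 132 bases before the gene start. None of these 4 windows held both a STAT and an AP-1 match. Of 8127 tested genes with a promoter in the table, 6.13% held a STAT and 3.88% an AP-1 match. The shares were 9.82% and 6.75% among 163 promoters of genes called higher, and 3.90% and 1.95% among 205 promoters of genes called lower. For the E-box CACGTG, bound by Myc and others, the shares were 9.20% among the higher, 7.32% among the lower and 8.75% among all. For the NF-kB motif they were 0.613%, 0.488% and 0.369%, and for the CRE motif TGACGTCA 2.45%, 2.93% and 3%. Of 8 promoters of interleukin 2 list genes called higher, 1 held a STAT and 2 an AP-1 match. A match is a run of letters and does not show that a factor binds there.

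Treg identity genes included 8 rises among 28. Foxp3 (chromosome X, 7573644 to 7595245, GRCm38) had 238 and 268 FPKM in stimulated and 71.5 and 82.6 FPKM in unstimulated cells (log2 fold change 1.70, SE 0.17, adjusted p = 0.00363), and 18.6% of its exons overlap the non-coding gene Flicr on the same strand. Gpr83, a G protein-coupled receptor of Treg, had 132 and 141 against 9.50 and 5.55 FPKM (4.05, SE 0.34, adjusted p = 0.00246). Of 28 tested members of this list 8 were called higher and 1 lower, where 2.08% and 2.49% of all genes were. Their median was 0.364. Ctla4 and Ikzf2, which encode an inhibitory receptor and the factor Helios, were not called. The 8 include members that the interleukin 2 list holds too. Fewer Treg identity genes were called higher in each fit that left out 1 of the cKO libraries.

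Among co-stimulatory receptors of the TNF receptor family, Tnfrsf9 (4-1BB) had 535 and 480 FPKM in stimulated and 231 and 208 FPKM in unstimulated cells, and Tnfrsf4 (OX40) had 843 and 755 against 352 and 433 FPKM. They rose by 1.21 and 1.03, and the adaptor gene Traf6 by 1.40, while the receptor gene Cd27 fell by 0.94. Icos, a CD28 family receptor, had 382 and 276 against 128 and 75.7 FPKM (1.71, adjusted p = 0.0172). Pdcd1, which encodes PD-1, fell to 48.6 and 41.5 FPKM in stimulated cells, against 106 and 86.7 FPKM in unstimulated ones (-1.08, adjusted p = 0.0130). Cd200 rose by 1.37 and the adhesion receptor gene Cd2 by 1.04. Of the Treg list, Penk, the gene of proenkephalin, fell by 0.95, a call that 1 of the 4 rescalings kept.

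Among transcription factor genes of T cell lineages 5 rose and 1 fell. Irf4, which effector Treg need, had 125 and 121 FPKM in stimulated and 33.5 and 38.2 FPKM in unstimulated cells (1.75, adjusted p = 0.00995). Myb, Hif1a, Nfil3 and Stat4 rose by 1.33, 1.35, 1.24 and 0.67, and 26.7% of the exons of Stat4 overlap the gene Gm28177 on the same strand. Bcl6, the repressor that directs follicular T cells, fell to 5.44 and 5.55 FPKM in stimulated cells, against 33.0 and 38.8 FPKM in unstimulated ones (-2.50, SE 0.19, adjusted p = 0.00206). These 6 were the called members of 24 tested lineage factors, where 4.58% of all genes were called. Fewer lineage factors were called higher in each fit that left out 1 of the cKO libraries. Gata3 and Maf had 0.69 and 0.93 without passing, with adjusted p of 0.0558 and 0.0689.

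**Figure D3:**
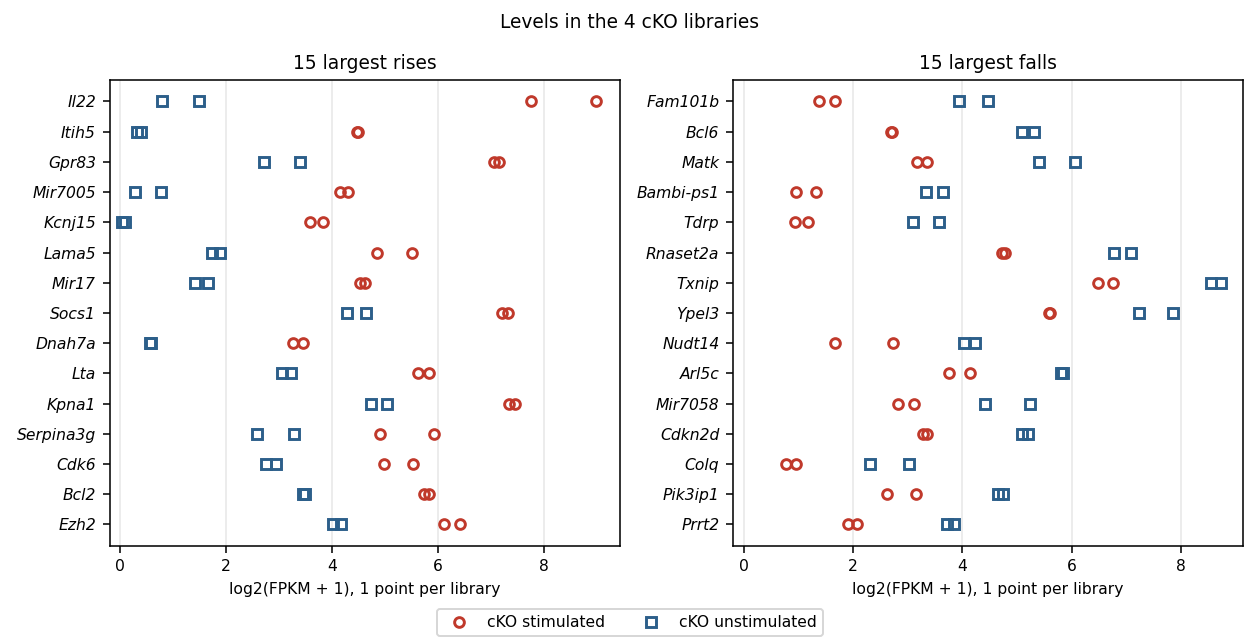
Log2(FPKM + 1) of the 15 largest rises (left) and 15 largest falls (right) among called genes, with 1 point for each of the 4 cKO libraries (circles, stimulated; squares, unstimulated). The groups do not overlap for any of the 30, which the choice required; over all tested genes 64.8% had no overlap, 20.7% wholly higher and 44.1% wholly lower in stimulated cells.

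Several of the largest changes lay outside these lists. Itih5, a hyaluronan-binding matrix protein gene, had 21.4 and 21.0 FPKM in stimulated and 0.307 and 0.248 FPKM in unstimulated cells (4.12, SE 0.35). Kcnj15, a potassium channel gene, had 13.2 and 11.01 against 0.0187 and 0.0654 FPKM (3.65, SE 0.30), and Lama5, a laminin chain gene, 27.7 and 44.6 against 2.33 and 2.68 FPKM (3.37, SE 0.26). The importin gene Kpna1 had 160 and 174 against 31.9 and 25.5 FPKM (2.51, SE 0.18) and Nabp1, which encodes a single-stranded DNA binding protein, 74.0 and 70.7 against 15.8 and 15.9 FPKM (2.12, SE 0.18). For these 5 genes the adjusted p lay between 0.00176 and 0.00246. Serpina3g, a serine protease inhibitor gene of a cluster with similar copies, rose by 2.48 and the dynein gene Dnah7a by 2.79. The entries Mir7005 and Mir17 rose by 3.71 and 3.04. Mir7005 lies inside the gene Lama5 but outside its exons, and Mir17 lies wholly within exons of its host Mir17hg, and mature microRNAs were not measured.

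Among the falls, Fam101b, which encodes a regulator of actin, had 1.58 and 2.17 FPKM in stimulated and 21.0 and 14.4 FPKM in unstimulated cKO cells (-2.69, adjusted p = 0.0137). Matk, a kinase gene, had 8.03 and 9.25 against 41.5 and 65.7 FPKM (-2.47, adjusted p = 0.0305). Ypel3, a growth suppressor, had 46.8 and 47.4 against 149 and 230 FPKM (-1.95, adjusted p = 0.0172). Arl5c, Tdrp and Nudt14 fell by 1.88, 2.29 and 1.95. Rnaset2a, a near copy of Rnaset2b that may share its reads, fell by 2.18, the pseudogene Bambi-ps1 by 2.34, and Prrt2, with 92.4% of its exons overlapped by the gene Gm42742 on the same strand, by 1.80. Mir7058, which lies within exons of Lat, fell by 1.86. Colq fell by 1.81, a call kept by 1 of the 4 rescalings.

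Several genes of the resting state fell. Of 28 tested genes of resting and quiescent lymphocytes 0 were called higher and 8 lower, where 2.08% and 2.49% of all genes were. Their median was -0.51. Txnip, which restrains glucose uptake, had 107 and 88.8 FPKM in stimulated and 427 and 376 FPKM in unstimulated cells (log2 fold change -2.03, SE 0.24, adjusted p = 0.00725). An opposite-strand gene, Gm15441, covers 19.4% of its exons. Tcf7, a factor of naive and resting T cells, had 60.02 and 80.4 against 214 and 260 FPKM (-1.75, SE 0.19, adjusted p = 0.00508). Tsc22d3, a glucocorticoid-induced regulator, fell by 1.39, Zfp36l2, an mRNA decay factor gene, by 1.23, and the lymph node homing receptor gene Ccr7 by 0.89. Pik3ip1, an inhibitor of PI3K, fell by 1.80, Klf2 by 0.95 and Tob1 by 0.81, calls that 3, 2 and 0 of the 4 rescalings kept.

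The count of 8 was 0, 1, 3 and 0 without stimulated replicates 1 and 2 and unstimulated replicates 1 and 2, and between 5 and 7 under the rescalings. S1pr1 and Il7r stood at -0.78 and -0.90 without passing (adjusted p = 0.0762 and 0.196).

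Several regulators of G protein signalling fell too. Rgs2 had 35.3 and 31.4 FPKM in stimulated and 115 and 121 FPKM in unstimulated cells (-1.79, SE 0.17, adjusted p = 0.00316), and Rgs10 had 81.3 and 69.8 against 161 and 159 FPKM (-1.07). In all 6 of 22 tested members fell and 0 rose, where 2.49% and 2.08% of all genes did. The others that fell were Rgs14, Rgs16, Arrb2 and Arhgef1, whose calls 3, 0, 3 and 2 of the 4 rescalings kept. The count of 6 was 1, 0, 1 and 0 without stimulated replicates 1 and 2 and unstimulated replicates 1 and 2. Cxcr4, the receptor of the chemokine CXCL12, had 56.8 and 51.1 against 130 and 154 FPKM (-1.38, adjusted p = 0.0137). Ptger4, a prostaglandin E2 receptor gene, went up, with 50.9 and 50.8 against 18.6 and 17.9 FPKM (1.43, adjusted p = 0.00477). Itgb3 was the 1 called of 11 tested integrin chains, with a rise of 1.26. S1pr4 fell by 1.08, a call kept by 1 rescaling.

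Some early response genes of the T cell receptor were called. Of 27 tested AP-1, EGR, NR4A and related genes 2 rose and 1 fell, where 2.08% and 2.49% of all genes did. Jun rose by 1.02 and the nuclear receptor gene Nr4a3 by 0.87. Jun had 99.5 and 102 FPKM in stimulated and 41.5 and 58.4 FPKM in unstimulated cells. The phosphatase gene Dusp1 fell by 0.80, a call that no rescaling kept, and Egr1 had 80.1 and 53.2 against 27.0 and 25.5 FPKM without passing (1.28, adjusted p = 0.196). Nr4a1 overlapped between the groups, with 325 and 331 against 256 and 391.9 FPKM.

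Of 33 tested receptor-proximal genes 3 rose and 5 fell, where 2.08% and 2.49% of all genes did. Rasgrp1, an activator of Ras, had 87.1 and 97.8 against 43.6 and 41.1 FPKM (1.11, adjusted p = 0.0198). The adaptor gene Lcp2 (SLP-76) rose by 0.98. The adaptor gene Lat fell to 90.8 and 87.9 FPKM in stimulated cells, against 157 and 210 FPKM in unstimulated ones (-1.02, adjusted p = 0.0305). The inhibitory receptor gene Cd5 fell by 0.87, the diacylglycerol kinase genes Dgka and Dgkz by 1.02 and 0.61, and Ubash3a by 0.66, calls that 2, 3, 1 and 0 of the 4 rescalings kept. Among NF-kB pathway genes, 0 of 22 rose and 2 fell, the kinase gene Ikbke by 1.46 and Tnip1 by 0.85, the second called under 1 rescaling. Orai2, a calcium channel gene, fell by 1.27.

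**Figure D4:**
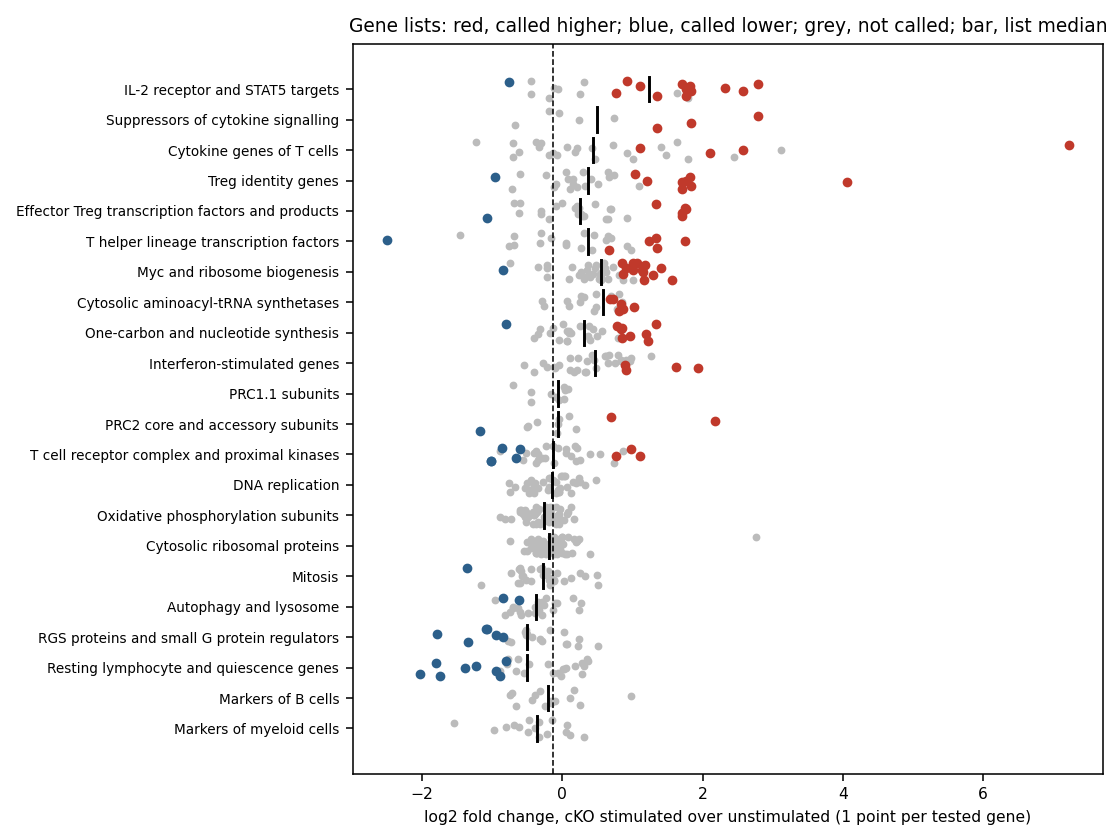
Log2 fold change of stimulated over unstimulated cKO Treg for the tested members of 22 gene lists, with 1 point per gene (red, called higher; blue, called lower; grey, not called). Black bars are list medians and the dashed line is the median of all genes. The interleukin 2 and STAT5 list has the highest median of those drawn, at 1.23, and the resting lymphocyte list the lowest, at -0.51. The lists were chosen with earlier results of these data known.

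Genes of growth and biosynthesis were called mostly as higher. Myc, which drives ribosome production, had 92.2 and 108 FPKM in stimulated and 25.4 and 42.8 FPKM in unstimulated cKO cells (1.57, SE 0.30, adjusted p = 0.0340). With 48 tested genes of Myc and ribosome biogenesis, 13 rose and 1 fell, where 2.08% and 2.49% of all genes did. The median of the 48 was 0.549. Heatr1, needed for ribosomal RNA synthesis, had 30.6 and 33.4 against 11.4 and 11.5 FPKM (1.40). Rrp12 and the RNA polymerase I genes Polr1a and Polr1b rose by 1.29, 1.17 and 1.15, Tsr1 by 1.16 and Dkc1 by 1.14. Srr on the opposite strand covers 32.3% of the exons of Tsr1. Mxd4, an antagonist of Myc, fell by 0.85, a call kept by 1 rescaling.

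Among 20 tested cytosolic aminoacyl-tRNA synthetase genes 6 rose and 0 fell (median 0.575), where 2.08% and 2.49% of all genes did. Tars, for threonine, had 76.7 and 69.6 against 36.2 and 34.6 FPKM (1.03, adjusted p = 0.0213), and Iars and Aars, for isoleucine and alanine, rose by 0.86 and 0.81. The cationic amino acid transporter gene Slc7a1 had 65.7 and 67.6 FPKM in stimulated and 24.8 and 23.0 FPKM in unstimulated cells (1.44, adjusted p = 0.00725), and Slc7a5, a transporter of large neutral amino acids, rose by 0.85.

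Of 30 tested genes of one-carbon and nucleotide synthesis 8 rose and 1 fell, where 2.08% and 2.49% of all genes did. Shmt1 and Mthfd1, of the cytosolic folate cycle, rose by 1.34 and 1.22, Cad, of pyrimidine synthesis, by 1.19, and Ctps, a CTP synthase gene, by 0.96. Mthfd2 and Psat1 rose by 0.83 and 0.78. Ctps2 fell by 0.81, a call that no rescaling kept. None of the rises in ribosome biogenesis, tRNA synthetase or one-carbon genes was called in any fit that left out 1 of the 4 cKO libraries.

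Other metabolic lists were read beside the 4.58% of all genes called. The fatty acid elongase gene Elovl6 had 18.5 and 16.3 FPKM in stimulated and 3.93 and 2.86 FPKM in unstimulated cells (2.07, SE 0.21, adjusted p = 0.00422), and the sterol carrier gene Stard4 rose by 1.08, the 2 called of 29 lipid synthesis genes. In glycolysis, with 23 tested genes, Eno1 rose by 0.80 and the lactate exporter gene Slc16a3 fell to 19.6 and 17.5 FPKM in stimulated cells, against 52.3 and 47.4 FPKM in unstimulated ones (-1.38, adjusted p = 0.0193). Ndrg1 of the hypoxia list rose by 1.07. Of the 49 oxidative phosphorylation genes, 0 were called by limma and the median was -0.256. The endoplasmic reticulum chaperone gene Pdia4 had 133 and 160 against 40.8 and 31.1 FPKM (2.00, adjusted p = 0.0137), Trib3 rose by 1.05 and the mitochondrial chaperone gene Hspa9 by 0.92.

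Of 23 tested G1 cyclins and cell cycle inhibitors 2 rose and 2 fell, where 2.08% and 2.49% of all genes did. The median of the 23 was -0.0587. Cdk6, a G1 kinase, had 30.6 and 44.9 FPKM in stimulated and 6.72 and 5.78 FPKM in unstimulated cells (2.40, adjusted p = 0.0264), and Ccnd2, its cyclin partner, 132 and 128 against 43.7 and 32.5 FPKM. Cdkn2d, an inhibitor of Cdk4 and Cdk6, fell to 9.15 and 8.66 FPKM in stimulated cells, against 32.9 and 35.9 FPKM in unstimulated ones (-1.84, SE 0.21, adjusted p = 0.00555). Ccng2, a cyclin of resting cells, had 21.6 and 20.0 against 57.5 and 68.3 FPKM (-1.55, SE 0.14, adjusted p = 0.00316). Of 38 DNA replication genes 0 were called by limma, and of 30 mitosis genes 1 was, against 4.58% of all genes. It was the centromere histone gene Cenpa, which fell by 1.36, a call 2 of the 4 rescalings kept. The difference between these lists was not tested.

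Of 16 tested BCL2 family genes 2 rose and 2 fell, where 2.08% and 2.49% of all genes did. The median of the 16 was -0.234. Bcl2 and Bcl2l1, which oppose cell death, rose by 2.32 and 0.79. Bax and Bbc3, which promote it, fell by 1.27 and 1.55, the second called under 1 of the 4 rescalings. Bbc3 had 6.79 and 10.6 FPKM in stimulated and 20.6 and 34.6 FPKM in unstimulated cells. Mcl1 and Bcl2l11 stood at 0.52 and -0.56 without passing (adjusted p = 0.0877 and 0.116).

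Of the interferon-stimulated genes 4 of 34 tested rose and 0 fell, where 2.08% and 2.49% of all genes did. The median of the 34 was 0.467. All 4 encode GTPases of interferon-induced families, whose near copies can share reads. Gbp5 had 44.2 and 43.1 FPKM in stimulated and 14.2 and 13.0 FPKM in unstimulated cells (1.61, SE 0.18, adjusted p = 0.00555). Iigp1 had 44.1 and 23.0 against 8.21 and 7.10 FPKM (1.93), and Gbp2 and Ifi47 rose by 0.90 each. The receptor gene Il10ra rose by 1.33, and Il21r fell by 0.77, a call kept by 1 rescaling. Autophagy and lysosome genes had a median of -0.37, and the 2 of 26 that were called, Map1lc3b and Mcoln1, fell by 0.61 and 0.85, kept by 1 and 0 rescalings.

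Polycomb genes were read for the complex that the knockout concerns. Of 10 tested PRC1.1 genes 0 were called by limma, with a range from -0.71 for Pcgf1 to 0.0791 for Usp7, against 4.58% of all genes called. Bcor, the scaffold of the complex, had 50.4 and 64.9 FPKM in stimulated and 54.1 and 57.3 FPKM in unstimulated cells, so that the groups overlap. Rnf2, the ubiquitin ligase, overlapped too, with 36.5 and 36.8 against 39.8 and 32.9 FPKM.

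PRC2, which methylates histone H3 at lysine 27, held 3 called genes of 11, where 4.58% of all genes were called. Its methyltransferase gene Ezh2 (chromosome 6, 47530139 to 47595341, GRCm38) had 68.6 and 83.8 FPKM in stimulated and 16.9 and 15.2 FPKM in unstimulated cells (2.17, SE 0.16, adjusted p = 0.00206). The accessory subunit gene Jarid2 rose by 0.69. Phf1, of which 39.3% of the exons are covered by the opposite-strand gene Cuta, fell by 1.17. Among 19 other PRC1 genes Phc3 had 38.1 and 52.2 against 17.04 and 15.2 FPKM (1.41) and Cbx7 fell by 1.14, a call 2 of the 4 rescalings kept. None of the 19 tested histone demethylase genes was called in cKO cells by limma.

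The response of cKO cells was set against that of WT cells in the same table, 260 called genes or 2.43%, with 172 higher (1.61%) and 88 lower (0.822%). The test of the difference between the responses called 0 of 10710 genes by limma, where 380 had an unadjusted p under 0.05 and the smallest adjusted p was 0.999. The larger count in cKO is therefore not shown to be a different response of any named gene. The cKO libraries, with 202.3 to 257.2 FPKM of B cell markers and 1.33% to 11.6% haemoglobin, differ in these from the WT libraries, with 42.86 to 62.11 FPKM and 0.00678% to 0.548%. MHC class II genes summed to between 1127 and 1468 FPKM in the cKO libraries and between 292.3 and 541.4 FPKM in the WT ones. The part these differences have in the comparison was not tested. Dtx3, a ubiquitin ligase gene, had the smallest p, 0.00121. It had 7.45 and 9.04 FPKM in stimulated and 17.2 and 23.6 FPKM in unstimulated cKO cells, and 20.7 and 20.7 against 16.3 and 19.2 FPKM in WT cells. The difference in log2 fold change was -1.42 (SE 0.29).

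The metallothionein gene Mt2, which binds zinc and copper, had 13.8 and 12.6 FPKM in stimulated and 9.92 and 16.4 FPKM in unstimulated cKO cells, and 12.4 and 17.2 against 3.05 and 3.45 FPKM in WT cells (difference -1.84, SE 0.38, unadjusted p = 0.00130). An opposite-strand gene, Gm45774, covers 73.5% of the exons of Mt2. The other 8 of the 10 smallest p were those of Snord69, Snord73a, Snord55, Stk19, Snora33, Hbb-bs, Chkb and Clk2, each with a difference below 0. Snord69 and Snora33 lie within exons of Gnl3 and Rps12. Hbb-bs, a haemoglobin gene, was listed at 0 in both unstimulated WT libraries.

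**Figure D5:**
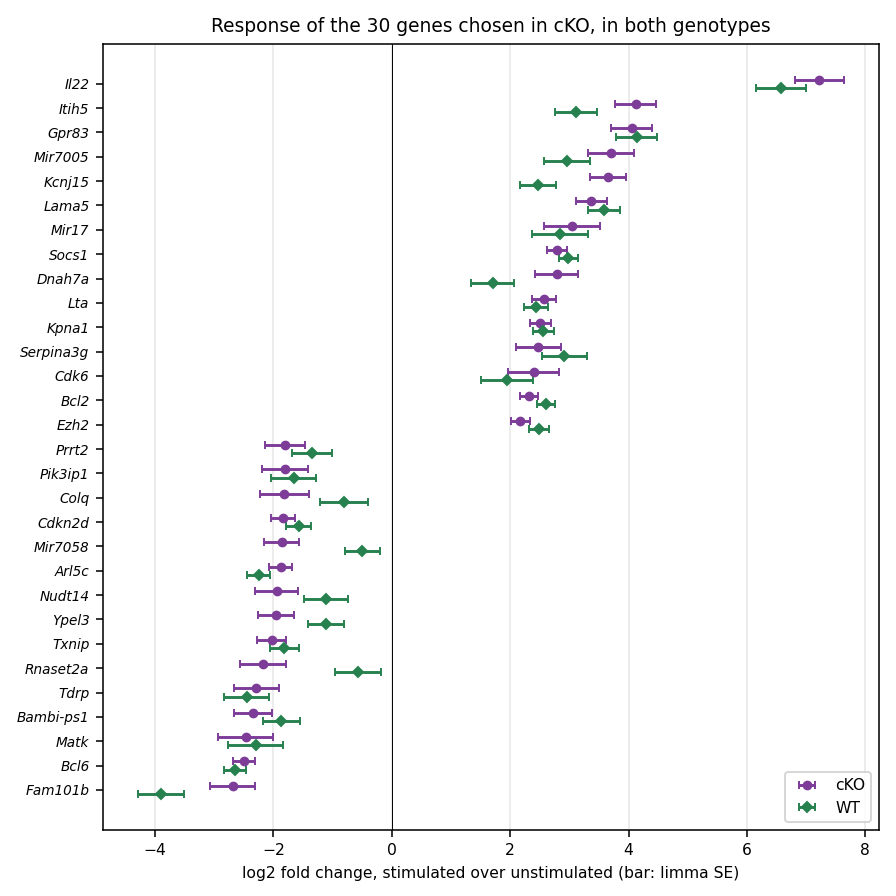
Log2 fold change of stimulated over unstimulated Treg in cKO (circles) and WT (diamonds) for the 15 largest rises and 15 largest falls called in cKO, with limma's SE as bars. All 30 have the same sign in WT; since the genes were chosen for their size in cKO, smaller WT values are no test of a difference, and the test of the difference called none of them.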

How the data were processed

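RNA of cultured Treg was sequenced by the submitters, and the deposited table gives FPKM for 24421 genes, of which the columns of 8 in vitro libraries were used. Per the submitters' processing notes, the tools included HISAT2 2.2.1 and StringTie 2.1.1; no settings are given. Counts are not used here, since FPKM did not step in whole fragments and the depth is unknown, so no interval for counting error can be given. Whether strand was used is not stated, so overlapping and antisense genes cannot be separated.

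A floor of 1 FPKM on the mean of the 8 libraries kept 10710 genes, log2(FPKM + 1) was taken, and limma 3.58.1 in R 4.3.3 fitted 4 group means with a trended, moderated variance. Contrasts were stimulated over unstimulated in cKO and in WT, and the difference of these. Calls needed a Benjamini-Hochberg adjusted p under 0.05. Tested on simulated data for 10710 genes, the cKO contrast called 53.7%, 94% and 100% of genes changed 2, 4 and 8-fold, and 3.51% of calls were false. The simulated noise was normal, independent between libraries and as wide as the fit itself estimated. Low genes were not among those changed, and no shift of all genes was added. These shares therefore need not hold for the calls in the real libraries.

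The in vitro table holds 4 other per-sample columns that match no sample label, and these were not used, nor was the in vivo table. Named genes were the 15 called genes that rose most and the 15 that fell most, with no overlap and at least 5 FPKM in the higher group, members of each list, PRC1.1 genes and the 10 smallest p of the difference. The members and lists were chosen with earlier results of these data known. Coordinates and exon overlaps are those of the GRCm38 annotation, and promoters are from RefSeq (GRCm38.p6), where 8127 of the 10710 genes matched by symbol and the first entry of a symbol was taken. Alternatives were other pseudocounts, floors, scalings and variance models, a replicate block, and leaving out libraries.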

Additional observations from a re-analysis of the deposited data

How the results depend on the processing

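The depth is unknown and each group has 2 libraries, which limits every count. Leaving out 1 of the 8 libraries gave between 12 and 660 called genes in cKO, 11 to 284 higher and 1 to 376 lower, and 0 to 3 for the difference from WT. Without both cKO replicate 1 libraries 1 gene was called, 1 higher and 0 lower, and without both WT replicate 2 libraries 1932 were, 588 higher and 1344 lower. Without a filter on low values 185 were called (102 higher, 83 lower), without a variance trend 207 (118 and 89), and with the 4 cKO libraries alone 1918 (596 and 1322). Requiring an absolute log2 fold change of 1 left 310, of which 153 were lower. Quantile normalization gave 363 higher, median-of-ratios scaling 144 lower and a common sum 134 lower. The difference from WT held 5 calls without both WT replicate 2 libraries, Rpl26, Atp6v0c-ps2, Rps2, Rps18 and H2-Eb1, named after their values were seen. With the replicate number as a replicate block 449 genes were called, 222 higher and 227 lower, and 394 of the 490 stayed called. That block is a single term shared by cKO and WT, so it does not model a pairing within cKO alone. The labels do not say that equal numbers share a source. Deviations of same-numbered libraries correlated at 0.42 in cKO and 0.239 in WT. Across the genotypes the correlations lay between -0.138 and 0.0577. A separate pairing in each genotype was not tested.

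Of the named genes, 3 uncalled ones turned sign, and the cause was not tested. Snord69 was at 0.0057 under quantile normalization and between -0.49 and 0.20 with 1 library left out. Mt2 lay between -0.30 and 0.37 with 1 left out and at -0.36 without both cKO replicate 1 libraries. Hbb-bs was at 0.10 under quantile normalization, between -2.003 and 1.32 with 1 left out and at 0.066 without both cKO replicate 1 libraries.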

Other observations

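Host genes of small nucleolar RNAs, non-coding genes whose introns carry RNAs that guide ribosomal RNA modification, were read as a class chosen after its values were seen. Of 11 tested, 0 were called higher and 2 lower, where 2.08% and 2.49% of all genes were. The median log2 fold change was -0.975 in cKO and 0.0374 in WT. Snhg5 had 14.8 and 12.3 FPKM in stimulated and 26.7 and 35.1 FPKM in unstimulated cKO cells (-1.12, limma adjusted p = 0.0176). Snhg3 had 2.53 and 1.71 against 6.57 and 11.6 FPKM (-1.66, adjusted p = 0.0439), a call that 2 of the 4 rescalings kept. The values of the 11 genes in cKO lie between -1.66 and 0.06, with Snhg17 and Snhg4 above 0. Gas5 and Snhg1 had -0.99 and -0.98 without passing (adjusted p = 0.0526 and 0.0602). The unstimulated cKO libraries differ from each other in many of these genes, with Gas5 at 44.4 and 72.7 FPKM and Snhg1 at 55.7 and 92.6 FPKM. Of 74 tested small nucleolar RNA entries 1 was called higher and 2 lower, with a median of -0.443 in cKO and 0.25 in WT. The difference between cKO and WT was not tested for the class.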
